A study of Homo sapiens with 6 samples.

Results

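The genes examined here encode the translation initiation and elongation factors, together with the kinases, binding proteins and methyltransferases named after them. They were taken as every autosomal protein-coding gene whose symbol begins with EIF or EEF, leaving out the EIF2C symbols, which are older names of Argonaute genes. This rule gave 69 of 19222 autosomal protein-coding genes, 2 of which are read-through genes that join a factor gene to its neighbour (EEF1AKMT4-ECE2 and EEF1E1-BLOC1S5). EIF1AX and EIF2S3 lie on the X chromosome and were therefore left out.

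Binding of N-Myc and JMJD6 was mapped by ChIP-seq, in which DNA bound by a protein is recovered with an antibody and sequenced. The cells were CHP-134, a neuroblastoma line with amplified MYCN and gain of 17q. All 6 samples came from this 1 line with no treatment named in the labels, 3 with an antibody against N-Myc and 3 with an antibody against JMJD6. Chromatin for N-Myc was cross-linked with formaldehyde alone, and chromatin for JMJD6 with DSG followed by formaldehyde, so that protein and cross-linking cannot be told apart in any comparison of the antibodies. The deposited lists give positions of peaks found in all 3 replicates (common peaks), of bound promoters (1 kb either side of a start site), and of bound enhancers and super-enhancers with their nearest genes. They carry no height, score or per-sample value, so no spread between replicates could be given and no difference between proteins was tested. The autosomal lists held 10019 N-Myc and 528 JMJD6 common peaks. As a check of the cell type, 8 adrenergic neuroblastoma transcription factor genes are reported here. Of these, 3 (HAND2, GATA3 and MYCN) were named beside an N-Myc super-enhancer and 5 were not, beside 1.32% of all genes. An N-Myc enhancer named 7 of the 8, beside 31.2% of all genes. Of 4 mesenchymal factor genes, 0 were named in either list, which at these shares says little for so few genes.

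Initiation begins when eIF2 carries the initiator tRNA to the small ribosomal subunit, while the eIF4 proteins bind the mRNA cap and unwind the leader, and eIF3 links these steps. eIF2B recharges eIF2 with GTP, and kinases that phosphorylate eIF2 under stress block that step. In elongation, eEF1A brings each aminoacyl-tRNA to the ribosome and eEF2 moves the ribosome along the mRNA. Myc proteins bind the E-box, CACGTG, as a dimer with MAX and are known for their action on genes of ribosome production and protein synthesis. JMJD6 is a Jumonji-domain protein known as a lysyl hydroxylase.

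The N-Myc promoter list named 36 of the 69 genes, 52.2% of them, and the JMJD6 promoter list none. For 2 of the 36, EIF3J and EEF2K, no common N-Myc peak overlapped the listed promoter. The share of all autosomal protein-coding genes with a listed N-Myc promoter was 17.8% (3421 of 19222). The start sites of 64 of the 69 genes were rich in CpG, and among these 34, or 53.1%, had a listed N-Myc promoter, beside 24.2% of all genes with a CpG-rich start. A listed promoter was spread over nearly all role groups, from cap recognition (8 of 12 genes) to eEF1 (3 of 7). The eEF1 group was formed by symbol, methyltransferases apart, and includes EEF1E1 and its read-through gene.

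**Figure D1:**
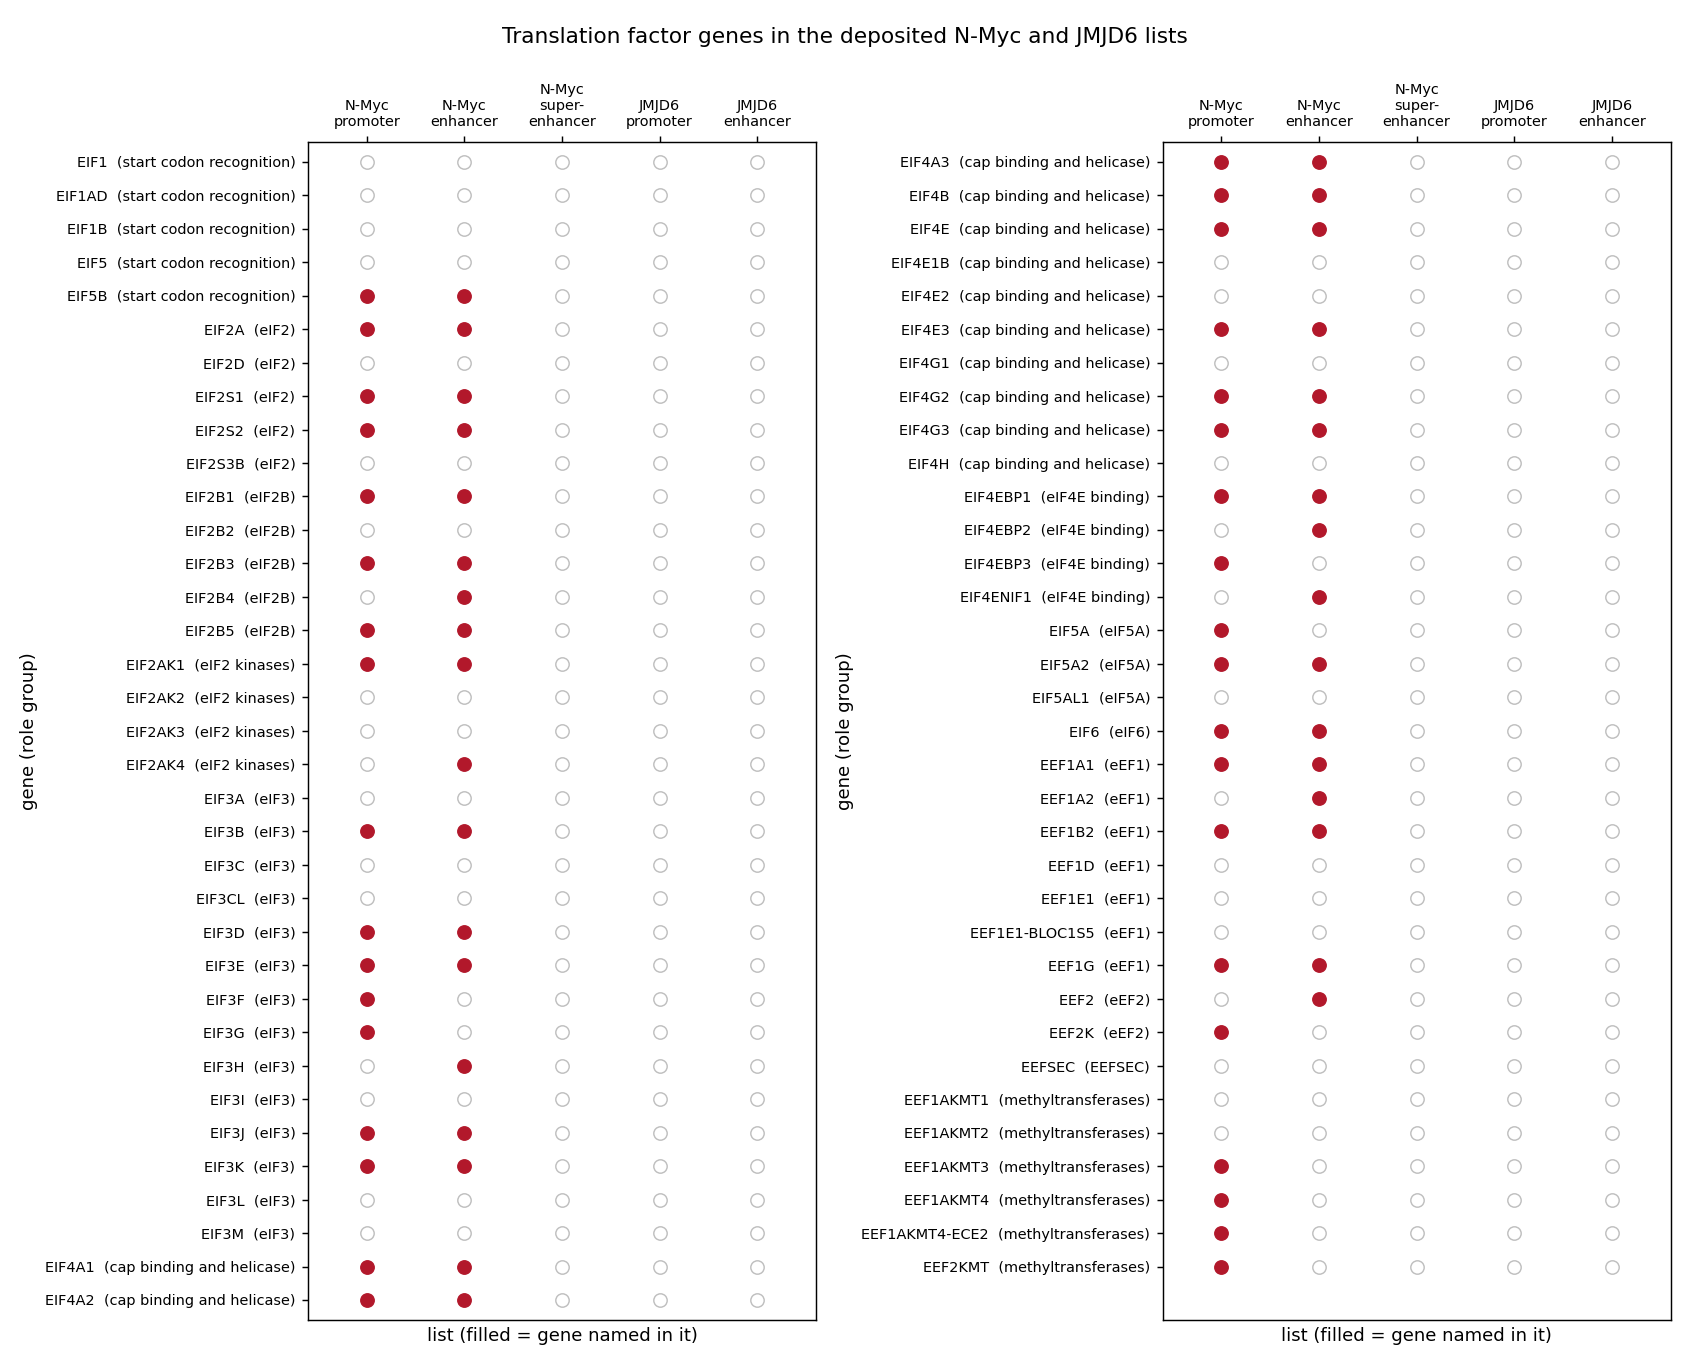
Each row is a gene with its role group and each column a deposited list, with filled circles where the list names the gene by its present symbol. The N-Myc promoter column has 36 filled circles and the N-Myc enhancer column 34, and the N-Myc super-enhancer and JMJD6 columns have none.

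The sequence under the N-Myc peaks is shown first for the genes whose promoter peak held the canonical E-box. Each stretch is given 5′ to 3′ on the strand of the gene from the hg19 reference, with the E-box in capitals, and is cut to 30 bases where an untranslated exon lies near. Those beside cap recognition and helicase genes, and beside the eIF4E-binding gene EIF4EBP3, read as follows.
EIF4A1 (chr17:7475837-7475866, plus strand): ctgtcgcctccgCACGTGtgagagtgcagg
EIF4A3 (chr17:78121013-78121078, minus strand): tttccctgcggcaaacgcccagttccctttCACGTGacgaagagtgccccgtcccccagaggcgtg
EIF4B, near the start (chr12:53400206-53400235, plus strand): gcccgctataatCACGTGattgcctcatcc
EIF4B, in the first part of the gene (chr12:53401007-53401072, plus strand): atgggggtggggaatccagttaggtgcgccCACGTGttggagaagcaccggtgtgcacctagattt
EIF4E3 (chr3:71774940-71775005, minus strand): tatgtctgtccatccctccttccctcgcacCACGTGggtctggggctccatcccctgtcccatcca
EIF4EBP3 (chr5:139927222-139927251, plus strand): tgccagcagctgCACGTGgtcggctgagtc

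The E-boxes at eIF2B, eIF3, eIF5A and methyltransferase genes are given in the same way. The peak of EIF5A2 is shown as a single stretch, since its E-boxes begin 25 bp apart.
EIF2B3 (chr1:45452411-45452476, minus strand): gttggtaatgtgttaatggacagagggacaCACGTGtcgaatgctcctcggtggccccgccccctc
EIF2B5 (chr3:183851933-183851998, plus strand): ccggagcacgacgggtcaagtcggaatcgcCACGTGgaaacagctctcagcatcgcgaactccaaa
EIF3F (chr11:8008804-8008833, plus strand): aaagctctagctCACGTGgtgtatattcag
EIF3K (chr19:39109713-39109742, plus strand): cgaggaagaagtCACGTGgcagccggaaag
EIF5A2 (chr3:170626553-170626643, minus strand): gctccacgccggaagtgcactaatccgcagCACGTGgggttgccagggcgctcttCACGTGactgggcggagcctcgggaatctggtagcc
EEF1AKMT3 (chr12:58165885-58165914, plus strand): ctctaccaaatcCACGTGgaggcgcaggcc
EEF1AKMT4, far from the start (chr3:183967219-183967248, plus strand): cagtgatgagccCACGTGagtctgacacct
EEF1AKMT4, near the start (chr3:183967351-183967380, plus strand): ggacggaagttcCACGTGtttgtgttgagc

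In 7 further genes the promoter peak held no CACGTG but did hold the variant CACGCG, which reads CGCGTG on the other strand. They are shown because the same factor dimers are known to bind that variant.
EIF2A (chr3:150264404-150264433, plus strand): gccctagatttgCGCGTGcgcgtttgggcg
EIF2AK1 (chr7:6098827-6098856, minus strand): agtgaaggtgcgCGCGTGgcggaggctggt
EIF2S1 (chr14:67826697-67826762, plus strand): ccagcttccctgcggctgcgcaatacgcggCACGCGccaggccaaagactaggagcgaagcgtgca
EIF3G (chr19:10230647-10230712, minus strand): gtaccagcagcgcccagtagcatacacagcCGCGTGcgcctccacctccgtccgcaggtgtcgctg
EIF4E (chr4:99849331-99849396, minus strand): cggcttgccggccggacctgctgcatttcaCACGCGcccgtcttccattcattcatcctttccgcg
EIF4G2 (chr11:10830940-10831005, minus strand): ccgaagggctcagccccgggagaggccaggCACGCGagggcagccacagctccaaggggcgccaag
EIF6 (chr20:33872540-33872569, minus strand): aggtacagtcgcCGCGTGcggagcttgtta

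Of the 36 distinct common peaks in the listed promoters, 14 held CACGTG (38.9%), beside 36.9% of all 3549 autosomal N-Myc peaks that overlap a listed promoter. CACGTG is its own reverse complement, and CACGCG was searched on both strands. Either sequence stood in 21 of the 36 peaks (58.3%) and in 56.9% of all N-Myc promoter peaks. The E-box therefore stood under these genes' peaks about as often as under N-Myc promoter peaks at large. The remaining 15 peaks, among them those of EEF1A1, EEF1B2, EEF1G, EIF4A2, EIF4G3, EIF5A and EIF3D, held neither. The looser pattern CANNTG was found in 33 of the 36 peaks and in 87.1% of all, which says little about any gene.

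The 14 peaks held 17 copies of CACGTG, or 0.804 per kb of peak against 0.879 per kb in all N-Myc promoter peaks. Of these, 12 of 17 lay within 250 bp of the listed start site, a count for which no share over all N-Myc promoter peaks is given. The flanking bases varied. CCACGTGG was seen in 3 copies (EEF1AKMT3, EIF2B5 and EIF4E3), which is 17.6% beside 17.8% of all copies in N-Myc promoter peaks. TCACGTGA was also seen in 3 (EIF4A3, EIF4B and EIF5A2), beside 5.94% of all copies, and GCACGTGC in none, beside 5.62%.

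The 36 peaks were 232 to 1539 bp wide, with a median of 517 bp (order-statistic 95% interval 434 to 638 bp), beside a median of 452 bp for all N-Myc promoter peaks. Their centres lay at a median distance of 128.5 bp from the listed start site, beside 184.5 bp for all. Within 250 bp lay 23 of 36 (63.9%), near the 58.3% of all N-Myc promoter peaks. In 25 genes the peak covered the listed start itself, a count for which no share over all genes is given. Width is the one measure of a peak that the lists retain, and it does not stand for the amount of protein bound.

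**Figure D2:**
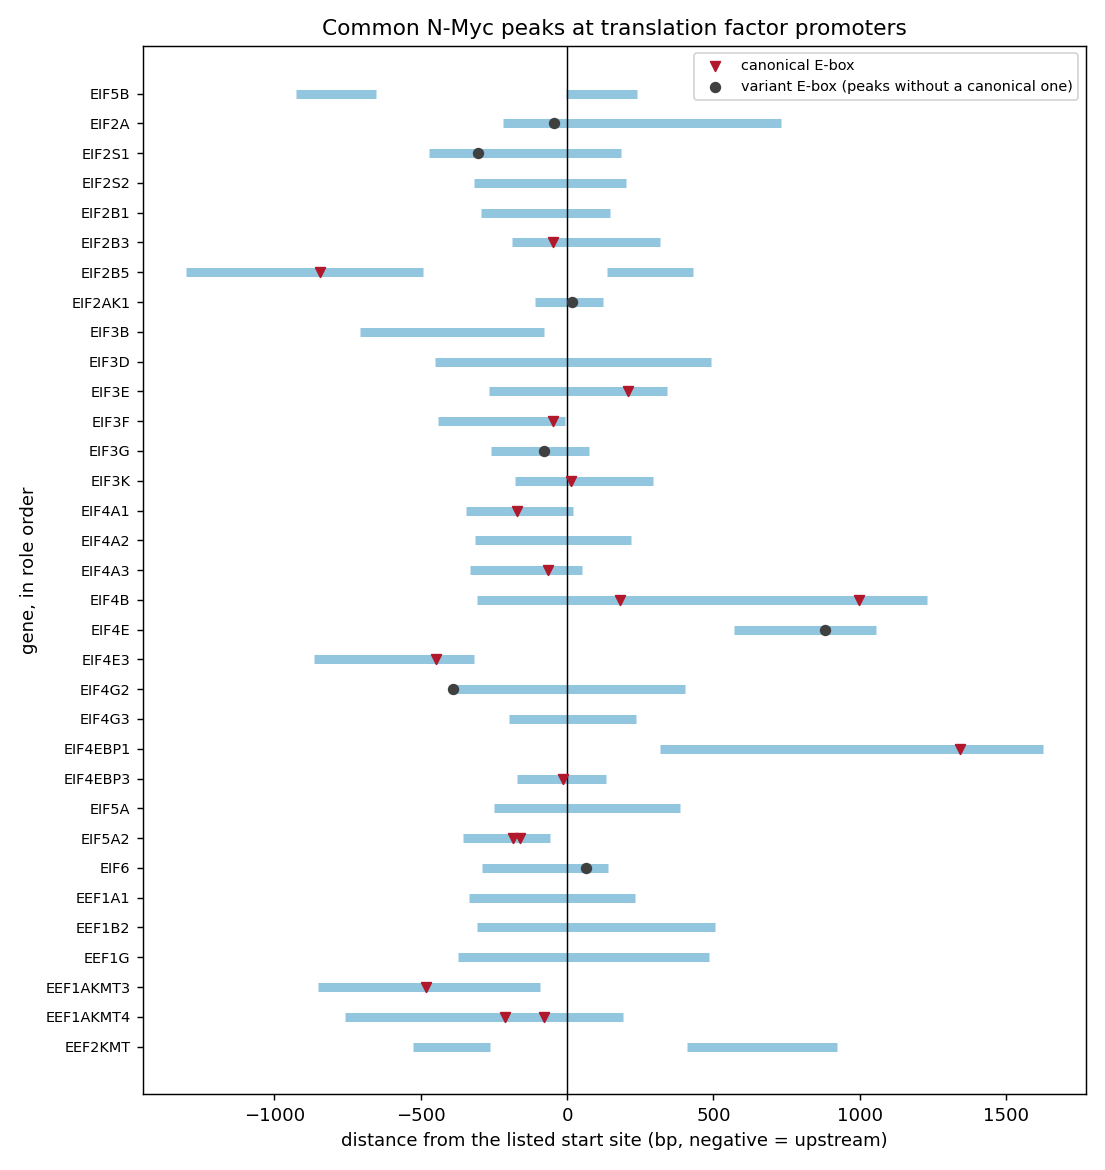
Horizontal bars are the common N-Myc peaks in listed promoters, placed by their distance in bp from the listed start site (negative is upstream), for the genes in role order and without the read-through gene. Triangles mark the canonical E-box and dots the variant in peaks without a canonical one; most bars cross or adjoin the start, and those of EIF4EBP1 and EIF4E lie wholly downstream of it.

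Cap recognition and mRNA unwinding formed the role group with the most listed promoters, 8 of 12 genes. EIF4E, which binds the cap, had a 486 bp peak at chr4:99849188-99849673, centred 812.5 bp downstream of the start in an intron, so that it did not reach the start. EIF4A1 and EIF4A2 encode the helicase of the cap complex. The EIF4A1 peak (chr17:7475679-7476045) was 367 bp wide and ended 22 bp past the listed start. Its E-box lay 171.5 bp upstream, within the annotated read-through gene SENP3-EIF4A1. The EIF4A2 peak (chr3:186501044-186501578) was 535 bp wide and covered the start, with no E-box. These helicase genes thus both had a peak over the listed start, and differed in the motif beneath it. The EIF4A1 peak ended 98 bp short of that gene's canonical start, whereas the EIF4A2 peak covered its own.

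EIF4B, which stimulates the helicase, had the widest peak of all the genes, 1539 bp (chr12:53399732-53401270). It was wider than 99.6% of N-Myc promoter peaks and ran from 309 bp upstream of the start to 1229 bp downstream, over E-boxes at 179.5 and 998.5 bp downstream. EIF4A3, a related helicase that marks exon junctions on mRNA, lies on 17q, the arm gained in this line. Its peak (chr17:78120930-78121312) was 383 bp wide, and an E-box flanked as TCACGTGA lay 63.5 bp upstream of the start. EIF1 also lies on 17q and had no listed promoter, with the nearest peak 7.87 kb away. Whether the gain of 17q bears on the EIF4A3 peak was not tested.

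The scaffold genes were split. EIF4G2, whose product lacks the cap-binding arm of the scaffold, had a 798 bp peak at chr11:10830178-10830975 centred 5.5 bp from its start. EIF4G3 had a 434 bp peak at chr1:21503146-21503579 centred 18.5 bp from its start, without any CANNTG. EIF4G1, the main scaffold, was in neither the promoter nor the enhancer list, and the nearest common peak lay 47.4 kb from its start. EIF4E3 had a peak 591.5 bp upstream of one of its 2 listed starts (chr3:71774844-71775391), and its other listed start held none. EIF4E1B, EIF4E2 and EIF4H were also unlisted, with the nearest peaks 28.3, 17.9 and 147 kb away.

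The proteins that hold eIF4E back are encoded by EIF4EBP1, EIF4EBP2 and EIF4EBP3, and EIF4ENIF1 encodes its transporter. EIF4EBP1 had the second-widest peak, 1308 bp, which was wider than 99.1% of N-Myc promoter peaks. It began 317 bp downstream of the start and held its E-box 1342.5 bp downstream, in an intron. EIF4EBP3 had a narrow peak instead, 303 bp (chr5:139927080-139927382), with an E-box 13.5 bp upstream of its start. That region also lies inside the annotated read-through gene ANKHD1-EIF4EBP3 and in SRA1. EIF4EBP2 and EIF4ENIF1 had no listed promoter, and their enhancers lay 22.4 and 89.7 kb from the start, each overlapping the listed promoter of another gene. A listed N-Myc promoter was thus found both at the cap-binding gene and at genes for its repressors.

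For eIF2, which delivers the initiator tRNA, the alpha and beta subunit genes were both listed. EIF2S1 had a 658 bp peak (chr14:67826561-67827218) and EIF2S2 a 521 bp peak (chr20:32699961-32700481), each across the start. The peak of EIF2S1 was shared with ATP6V1D, which is transcribed the other way. EIF2A, which can bring initiator tRNA to some mRNAs without eIF2, had a 947 bp peak (chr3:150264247-150265193), wider than 94.8% of N-Myc promoter peaks, that also lay in the listed promoter of SERP1. EIF2D and EIF2S3B were unlisted, and the nearest peaks lay 18.6 and 108 kb away.

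eIF2B, the exchange factor of eIF2, had 3 of its 5 subunit genes listed. EIF2B5, for the catalytic subunit, had 2 peaks that left its listed start uncovered. The upstream one (chr3:183851508-183852318, 811 bp) carried the E-box, 843.5 bp from the listed start. The downstream one (chr3:183852946-183853239, 294 bp) carried none, but it covered the canonical start of the gene. EIF2B3 had a 505 bp peak (chr1:45452077-45452581) with an E-box 49.5 bp upstream of the start. EIF2B1 had a 441 bp peak (chr12:124118178-124118618) across its start, shared with GTF2H3. EIF2B4 was named beside an enhancer alone, 26.1 kb long, and EIF2B2 was in no list, with the nearest peak 23.1 kb away.

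Among the eIF2 kinases, 1 of 4 had a listed promoter (25%), near the 24.2% of all genes with a CpG-rich start. EIF2AK1, the kinase that responds to lack of heme, had the narrowest peak of all the genes, 232 bp (chr7:6098737-6098968), centred 7.5 bp from the start. EIF2AK4, which responds to lack of amino acids, was named beside an enhancer 12.9 kb upstream that overlapped the listed promoter of another gene. EIF2AK2 and EIF2AK3, which respond to double-stranded RNA and to stress in the endoplasmic reticulum, were in no list, with the nearest peaks 515 and 64.4 kb away. A common peak did lie within 1 kb of the start of another annotated transcript of EIF2AK3.

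Of the start codon group, 1 of 5 genes was listed (20%), near the 17.8% of all genes. EIF5B, a GTPase that joins the ribosomal subunits, had 2 narrow peaks, 275 bp (chr2:99952907-99953181) and 245 bp (chr2:99953829-99954073), both within listed promoters shared with TXNDC9. The second of them covered the start. EIF1 and EIF5, which set the accuracy of start codon choice, were unlisted, as were EIF1B and EIF1AD. The nearest peak lay 7.87 kb from EIF1 and 230371 bp from EIF5.

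eIF3, the largest initiation factor, had 7 of 14 genes listed, namely EIF3B, EIF3D, EIF3E, EIF3F, EIF3G, EIF3J and EIF3K. EIF3D, whose product can bind the cap on some mRNAs, had the widest of these peaks, 941 bp (chr22:36924787-36925727), centred 20 bp from the start. EIF3B, for a scaffold subunit, had a 630 bp peak (chr7:2393765-2394394) that stayed upstream of the start. EIF3G had a 335 bp peak (chr19:10230525-10230859). EIF3E, EIF3F and EIF3K, which belong to the octamer at the core of eIF3, each had 1 E-box in the peak, at 209.5 bp downstream, 47.5 bp upstream and 14.5 bp downstream of the start. The EIF3F peak was 437 bp wide (chr11:8008424-8008860) and ended 6 bp short of the start. The EIF3K peak was 472 bp wide (chr19:39109535-39110006) and was shared with MAP4K1, and the EIF3E peak was 607 bp wide.

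EIF3J was in the promoter list although no common N-Myc peak overlapped that promoter, the nearest being 109 kb from its start. The same held for EEF2K, at 90.7 kb, and across the whole list for 2.56% of autosomal promoter entries (131 of 5113). The lists do not show why these entries were kept, and without EIF3J and EEF2K the count of bound promoters was 34 of 69. Listed promoters that held the centre of a common peak were also 34 of 69 (49.3%), beside 17% of all genes. The unlisted eIF3 genes were EIF3A, EIF3C, EIF3CL, EIF3H, EIF3I, EIF3L and EIF3M, with the nearest peaks 10.4 kb (EIF3H) to 249 kb (EIF3M) from the canonical start. The peak nearest to EIF3H did, however, cover the upstream end of that gene as annotated, where another transcript starts. EIF3C and EIF3CL are near-identical copies, as EIF5AL1 and EIF2S3B are copies of EIF5A and EIF2S3, and reads that fit more than 1 place may be lost at such genes; this was not tested.

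**Figure D3:**
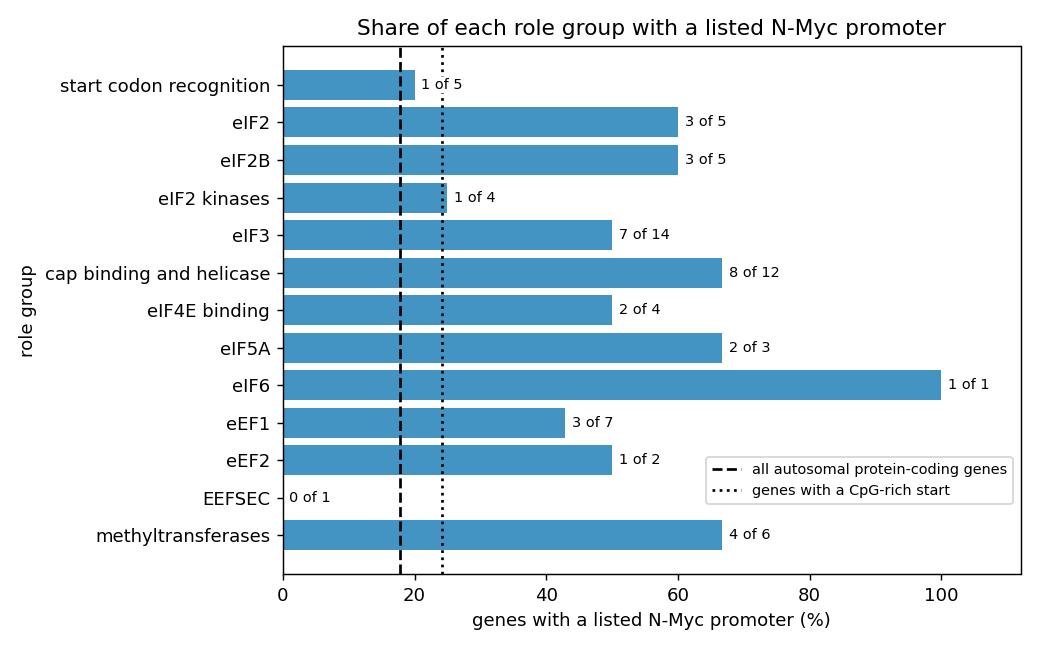
Bars give the percentage of genes in each role group with a listed N-Myc promoter, with the counts at the bar ends; the dashed line is the share of all autosomal protein-coding genes (17.8%) and the dotted line that of genes with a CpG-rich start (24.2%). Groups hold 1 to 14 genes, so the bars of the smallest groups rest on 1 or 2 genes.

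eIF5A carries the modified amino acid hypusine and helps the ribosome through difficult peptide bonds. EIF5A had a 638 bp peak (chr17:7210067-7210704) across the first of its 3 listed starts, with no E-box. Its relative EIF5A2 had a 298 bp peak (chr3:170626484-170626781) that lay wholly upstream, from 355 to 58 bp before the start, and held the pair of E-boxes shown above at 184.5 and 159.5 bp upstream. EIF5AL1 was unlisted. EIF6, which keeps the ribosomal subunits apart during their maturation, had a 429 bp peak (chr20:33872480-33872908) across its start.

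In the eEF1 group, 3 of 7 genes were listed, and none of their peaks held either E-box form. EEF1A1, the isoform used in most tissues, had a 567 bp peak (chr6:74230524-74231090) centred 52 bp upstream of the start. EEF1B2 and EEF1G, for the beta and gamma subunits of the exchange factor of eEF1A, had peaks of 816 bp (chr2:207024008-207024823) and 857 bp (chr11:62340976-62341832) across the start, and the first was shared with NDUFS1. EEF1D, for the delta subunit, was in no list, with the nearest peak 263 kb away. EEF1A2, the isoform of neurons and muscle, had no listed promoter. An enhancer that spanned its start named it (chr20:62129048-62135811, 6.76 kb, distance listed as 1.92 kb upstream). That enhancer held 1 common peak, 3.79 kb from the start. EEF1E1 had no peak within 712 kb.

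For translocation, EEF2 had no listed promoter. An enhancer that spanned its start named it (chr19:3983759-3986104, distance listed as 536 bp). No common N-Myc peak overlapped that enhancer, and the nearest lay 4.8 kb from the start. EEFSEC, which delivers selenocysteine, was in no list. The methyltransferases that modify these factors had 4 of 6 genes listed, but EEF1AKMT4 and EEF1AKMT4-ECE2 share a start and a peak and are 1 site. That peak (chr3:183966685-183967635) was 951 bp wide, was shared with ALG3, and held 2 E-boxes, 210.5 and 78.5 bp upstream of the start. EEF1AKMT3 had a 756 bp peak (chr12:58165533-58166288) shared with METTL1, with an E-box 482.5 bp upstream. EEF2KMT had 2 peaks on either side of its start (chr16:5146900-5147412 and chr16:5148083-5148346), neither with an E-box. EEF1AKMT1 and EEF1AKMT2 had no listed promoter.

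A listed N-Myc promoter was found for 28 of 54 genes of factor subunits and isoforms and for 8 of 15 genes of the kinases, binding proteins and methyltransferases. The share of all genes was 17.8%, and of genes with a CpG-rich start 24.2%. The listed and unlisted genes were alike in CpG content, with a median observed to expected CpG ratio of 0.83 and 0.84 at the start, and 30 of the 33 unlisted genes had a CpG-rich start. Peaks shared by promoters on opposite strands were 11 of 36 here (30.6%), beside 22% of all N-Myc promoter peaks. Where a peak lies between a pair of divergent starts, the lists cannot tell which gene it belongs to. With all promoters that overlap the promoter of another gene left out, 24 of 57 genes remained listed (42.1%), beside 12.3% of the remaining genes.

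N-Myc enhancers named 34 of the 69 genes, beside 31.2% of all genes. These were largely the same places as the promoters. Of 43 enhancer entries, 26 lay over the gene's own listed promoter, and 27 of the 34 genes had a listed promoter too. Without enhancers that overlap any listed N-Myc promoter, 6 genes remained (EEF1A2, EEF2, EIF2A, EIF2B3, EIF3H and EIF5A2), which is 8.7%, beside 13.8% of all genes treated in the same way. Among these, EIF5A2 had an enhancer 47.4 kb upstream with 3 common peaks (chr3:170671086-170676662), and EIF2B3 had one 40.7 kb downstream, 8.29 kb long (chr1:45407410-45415704). The EIF2A enhancer 136 kb upstream, like that of EEF2, held no common peak, and EIF3H was named from 207 kb away. The longest enhancer over a listed promoter of these genes was that of EIF4A1, 23.8 kb (chr17:7464588-7488365), which spanned 4 listed promoter entries and 2 common peaks. EIF4A1, EIF4A2, EIF4A3, EIF4B, EIF4E, EIF4E3, EIF4G2, EIF4G3, EIF4EBP1, EIF2A, EIF2AK1, EIF2B1, EIF2B3, EIF2B5, EIF2S1, EIF2S2, EIF3B, EIF3D, EIF3E, EIF3J, EIF3K, EIF5A2, EIF5B, EIF6, EEF1A1, EEF1B2 and EEF1G were in both lists. EEF1AKMT3, EEF1AKMT4, EEF1AKMT4-ECE2, EEF2K, EEF2KMT, EIF3F, EIF3G, EIF4EBP3 and EIF5A had a listed promoter without an enhancer under their present symbols, and 26 genes were in neither list. These calls depend on the symbol used. Under the older symbols FAM86A and N6AMT2, the enhancer list also named EEF2KMT, from 806 and 958 kb away, and EEF1AKMT1, from 129 kb away, which gave 36 genes with an enhancer, beside 32.7% of all genes, and 25 in neither list.

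No super-enhancer named any of the 69 genes, beside 1.32% of all genes for N-Myc and 0.078% for JMJD6. JMJD6 promoters likewise named 0 of 69, beside 0.635% of all genes, and the promoters listed for both proteins named 0, beside 0.291%. JMJD6 enhancers named 0 of 69, beside 0.9%, and those listed for both 0, beside 0.609%. At the JMJD6 promoter share of all genes, fewer than 1 of 69 genes would be listed (0.438), so these counts of 0 do not set the group apart from other genes. None of the 36 common peaks at these genes met a JMJD6 common peak, as 1.35% of all N-Myc promoter peaks did. The JMJD6 peak nearest to a start lay 16.3 kb from EIF4EBP2, followed by 17.2 kb for EEF1G, 91.8 kb for EIF5A and 92.4 kb for EIF4E1B, and for the other 65 genes it was over 100 kb away. A weaker or less frequent association than a peak called in all 3 replicates cannot be seen in these lists.

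**Figure D4:**
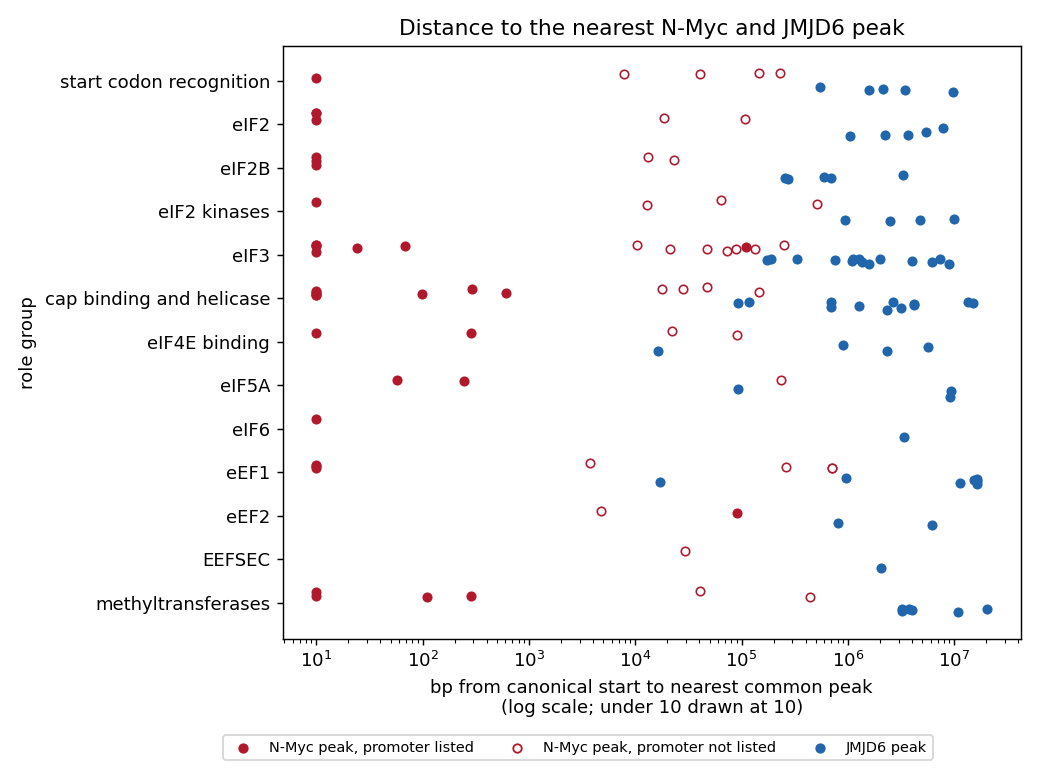
The distance in bp on a log axis from the canonical start of each of the 69 genes to the nearest common N-Myc peak (red, filled where the promoter is listed) and JMJD6 peak (blue), by role group. Apart from EIF3J and EEF2K, filled red points lie below 1000 bp, open red points run from 3.79 to 712 kb, and no blue point lies below 16.3 kb.

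For the 33 genes without a listed N-Myc promoter, the nearest common peak lay 3.79 to 712 kb from the canonical start, with a median of 47.4 kb. It was within 10 kb for 3 of them (EEF1A2, EEF2 and EIF1) and beyond 100 kb for 12. Measured from the canonical start, most of these genes therefore did not lie just outside the promoter window. The same distances are not given for all unlisted genes, so they do not set this group apart. A window of 1 kb around every annotated start gave 36 genes again, beside 21.5% of all genes. Widening it to 2500 bp also gave 36, beside 23.6% of all genes. EIF3H and EIF2AK3 were gained through starts other than the canonical one, not through the wider window, and EIF3J and EEF2K were lost.

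A further list of translation genes that are not named EIF or EEF held 33 autosomal genes. Of these, 15 had a listed N-Myc promoter (45.5%), namely ABCE1, ABCF1, BZW2, CTIF, ETF1, GSPT1, METAP2, MTOR, PAIP2, PPP1R15B, RPS6KB1, ATF4, DPH1, DPH2 and DPH5. The other 18 were BZW1, DENR, GCN1, HBS1L, LARP1, METAP1, MKNK1, MKNK2, PABPC1, PABPC4, PAIP1, PDCD4, PELO, PPP1R15A, RPS6KB2, TPT1, DDIT3 and DPH7. The share of all genes with a listed N-Myc promoter was 17.8%, as above. Several branches were split. ETF1 and GSPT1, which act in termination, were both listed. In the mTOR pathway, MTOR and RPS6KB1 were listed and RPS6KB2 was not. In the eIF2 stress response, ATF4 and PPP1R15B were listed, whereas GCN1, PPP1R15A and DDIT3 were not. DPH1, DPH2 and DPH5 take part in making diphthamide, a modified residue of eEF2, and were listed, whereas DPH7 of the same pathway and EEF2 itself were not. By present symbols, N-Myc enhancers named 18 of the 33 (54.5%), beside 31.2% of all genes. None of the 33 had a listed JMJD6 promoter, which at 0.635% of all genes does not set them apart.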

How the data were processed

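ChIP-seq lists of 3 N-Myc and 3 JMJD6 samples of CHP-134 cells were used. The authors used BWA for alignment, SAMtools and bedtools for file handling, and MACS2 for peak calling against input (2.1.1.20160309, at a q-value limit of 0.05), keeping peaks present in all 3 replicates. Promoters were set at 1 kb either side of RefSeq starts, and enhancers and super-enhancers were built with ROSE from H3K27ac peaks stitched within 12.5 kb, with nearest genes from GREAT. The deposited values are positions in bp with gene symbols. The deposited lists hold no count, signal or score, and the depth of each sample was not analysed here, so no counting interval is given.

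Symbols were matched whole to GENCODE 44 genes lifted to GRCh37 (hg19), and 39 of 41 promoter entries of the genes lay within 100 bp of an annotated start of that symbol. Of 4149 symbols in the N-Myc promoter list, 3421 matched. Overlap meant at least 1 bp. Motifs were counted on the reference with pysam 0.24.0, and the code was tested on simulated intervals and sequences. A CpG-rich start had at least 50% GC and an observed to expected CpG ratio of at least 0.6 within 500 bp on either side. Every gene in a list is named, and E-box stretches are printed for each peak that holds one, apart from those of EIF3E and EIF4EBP1, which are not reported here. The genes and lists were chosen with earlier results of these data known. No test was run, since the lists hold 1 merged result for each protein. Python 3.11.15, numpy 2.4.6 and SciPy 1.17.1 were used. One adrenergic marker is not reported here.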

Additional observations from a re-analysis of the deposited data

How the results depend on the processing

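The number of genes with a listed N-Myc promoter was 36 of 69. Under the other settings it ran from 24 (of 57, without overlapping promoters) to 36, beside 10.6% to 24.2% of the genes compared. It was 28 of 54 for factor subunits and isoforms alone. It was 27 of 69 where a peak at least as wide as the median was required (10.6% of all genes). It was 35 of 67 without read-through genes, and older symbols, matched after seeing the data, left it at 36. The JMJD6 promoter count was 0 under each setting tried, beside 0.416% to 0.921% of all genes. The N-Myc enhancer count fell from 34 to 6 without enhancers over a listed N-Myc promoter, beside 13.8% of all genes. Otherwise that count was 30 to 36, beside 14.5% to 32.7% of all genes. The share of peaks with CACGTG was 38.9% (exact binomial 95% interval 23.1% to 56.5%, which treats peaks as independent), 22.2% within 100 bp of the peak centre, 58.3% for CACGTG or CACGCG and 91.7% for any CANNTG; the same settings gave 23.1%, 56.9% and 87.1% over all N-Myc promoter peaks. The median peak width was 517 to 521 bp in each setting. No paired analysis was possible because the lists carry no per-sample values, and for the same reason no replicate could be left out. A stricter peak threshold could be imitated by width alone. Expression of these genes, read depth and peak height were not analysed here.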
